A study of Homo sapiens with 12 samples.

Results

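The HOXA cluster genes HOXA3, HOXA4, HOXA5, HOXA6, HOXA7, HOXA9 and HOXA10 and their partner genes MEIS1 and PBX3 were followed in MOLM-13 cells, an established line of human acute myeloid leukemia that carries a KMT2A (MLL) fusion. The 9 genes were chosen by name, out of 46639 gene symbols in the deposited table, and the rows of each symbol were summed. Each of 4 groups held 3 RNA-seq libraries. One group was untreated, the DAC group received 100 nM decitabine, which inhibits DNA methyltransferases, the ATRA group received 1 µM all-trans retinoic acid, which activates retinoic acid receptors, and the DAC+ATRA group received both drugs. All groups grew in medium with human GM-CSF, and no library was labelled as a vehicle control. The study's methods name no GM-CSF for these cells and mention controls treated with vehicle. Per the labels, untreated cells were kept for 96 h and treated cells for 72 h, so the time in culture and the drugs cannot be told apart in any comparison with untreated. The design text names 72 h for the harvest, and the study's methods give a shorter ATRA exposure than the labels. The labels call the libraries technical triplicates of the cell line, so p-values measure only the spread between these libraries.

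HOX proteins are homeodomain transcription factors whose genes lie in clusters and are switched on in map order along the body axis of the embryo. In blood formation the HOXA genes are high in stem and progenitor cells and fall as cells mature. Fusions of KMT2A, a histone H3 lysine 4 methyltransferase, keep the HOXA genes and MEIS1 transcribed, and HOXA9 binds DNA together with the TALE homeodomain proteins MEIS1 and PBX3.

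Reads per library, recovered from the deposited values, ranged from 8.95 to 11.9 M (M, mega) without drug, 4.67 to 6.95 M under DAC, 8.36 to 10.7 M under ATRA and 5.61 to 7.16 M under DAC+ATRA. Values are normalised counts, that is, reads divided by 1 size factor per library. Reads were counted per transcript, so those shared by several listed transcripts of a gene dropped out, and levels cannot be compared between genes. Of the 8 myeloid markers, 7 reached 10 normalised counts and CD68 was at 0 in every library. The 5 erythroid and platelet markers had at most 1 read in any library. Of 7 lymphoid markers 3 reached 10, and their sum ran from 20.9 to 64.3 over all libraries. Among them the B cell gene CD79A moved with treatment, from 3.07 ± 1.57 (SD, n = 3) in untreated to 16.5 ± 9.24 under DAC, 15.6 ± 3.97 under ATRA and 33.8 ± 6.68 under DAC+ATRA. CD3D and NCAM1, which also reached 10, had lower means under ATRA than in untreated. The means of CD3D were 16.5 in untreated, 25.1 under DAC, 5.66 under ATRA and 22.9 under DAC+ATRA. Those of NCAM1 were 7.103, 9.93, 1.75 and 1.93 in the same groups. Of 5 stromal and epithelial markers 2 reached 10, COL1A1 and PECAM1, and their sum was mostly PECAM1, which myeloid cells also express. That sum ran from 3590.5 to 4567 in untreated, 5530 to 6175 under DAC, 1475 to 1597 under ATRA and 1814 to 2186 under DAC+ATRA. The collagen gene COL1A1 went from 8.03 ± 2.93 in untreated to 21.2 ± 3.13 under DAC, 79.0 ± 12.5 under ATRA and 48.6 ± 9.50 under DAC+ATRA. The summed myeloid markers were mainly LYZ in every group but ATRA, and moved with treatment. The sum ran from 52214 to 64556 in untreated, 169215 to 213856 under DAC, 15301 to 21060 under ATRA and 59442 to 62666 under DAC+ATRA. Single markers went both ways. The fitted changes of the 7 tested were above 0 for 5 and below 0 for 2 with DAC, 3 and 4 with ATRA, and 4 and 3 with DAC+ATRA. FLT3 fell from 14027 ± 196 in untreated to 8281 ± 1117 under DAC. ITGAM rose from 9.58 ± 3.70 in untreated to 57.3 ± 8.63 under ATRA. In the other direction, MPO rose from 1513 ± 1.91 in untreated to 22033 ± 5415 under DAC. LYZ fell from 41628 ± 6449 in untreated to 6819 ± 2250 under ATRA. The part of all these markers in the results below was not tested. Among the retinoid-responsive genes, CYP26A1, the enzyme that breaks down retinoic acid, was at 0 in all libraries without ATRA and at 1331 ± 435 (SD, n = 3) with ATRA and 384 ± 7.93 with DAC+ATRA. All 5 genes of that list were called higher in both groups with ATRA.

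In these libraries HOXA9 fell with either drug and fell further with both, while MEIS1 rose with ATRA alone and not with DAC or DAC+ATRA. HOXA5 was lower with DAC than without it. HOXA7, HOXA10 and PBX3 passed the test in no comparison, and against untreated their adjusted p was 0.114 or higher in every alternative, DESeq2 and edgeR included. HOXA3 and HOXA4 were too low to test.

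The 250 bases before the annotated start of HOXA9, HOXA6 and MEIS1 are shown because DAC acts on CpG methylation, and HOXA9 fell with it, HOXA6 missed the threshold and MEIS1 stayed near its untreated level. They come from RefSeq on GRCh38.p14, 5′ to 3′ on the gene's strand, with each CpG in capitals. The HOXA9 window lies at chr7:27165538-27165787 (minus strand), that of HOXA6 at chr7:27147775-27148024 (minus strand) and that of MEIS1 at chr2:66434875-66435124 (plus strand). Each of these windows lies inside the GENCODE span of its gene given below, whose 5′ end is further upstream.
HOXA9: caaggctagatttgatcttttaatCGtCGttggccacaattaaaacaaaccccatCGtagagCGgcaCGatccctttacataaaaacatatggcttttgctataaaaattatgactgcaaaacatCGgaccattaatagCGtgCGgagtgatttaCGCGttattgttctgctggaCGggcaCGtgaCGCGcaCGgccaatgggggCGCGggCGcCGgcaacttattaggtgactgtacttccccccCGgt
HOXA6: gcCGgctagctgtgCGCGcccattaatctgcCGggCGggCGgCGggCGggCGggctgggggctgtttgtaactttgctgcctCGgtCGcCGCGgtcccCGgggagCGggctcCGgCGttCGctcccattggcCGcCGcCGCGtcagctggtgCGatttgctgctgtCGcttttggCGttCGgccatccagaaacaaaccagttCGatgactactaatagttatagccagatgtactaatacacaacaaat
MEIS1: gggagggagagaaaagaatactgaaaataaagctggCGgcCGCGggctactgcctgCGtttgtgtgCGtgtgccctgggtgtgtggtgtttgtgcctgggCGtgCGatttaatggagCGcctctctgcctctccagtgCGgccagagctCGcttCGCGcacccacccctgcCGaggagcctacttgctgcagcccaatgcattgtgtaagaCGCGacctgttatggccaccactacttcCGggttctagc
These windows held 20 CpG in HOXA9, 27 in HOXA6 and 16 in MEIS1. Over the 35116 RefSeq promoter windows of this length, the median was 11 CpG, with quartiles of 3 and 23. Of the 9 genes, 8 had such a window, 15 windows in all, and HOXA5 had none in the table used here. The other windows held 26 CpG in HOXA4, 28 in HOXA7, 19 and 24 in HOXA10 and 0 to 26 in HOXA3, and that of PBX3 held 36. The MEIS motif TGACAG was found, on either strand, in the windows of HOXA4 and PBX3 and in 13.0% of all windows. The HOX-PBX motif TGATTNAT, present in 2.48% of all windows, and the retinoic acid receptor half-site AGGTCA, present in 12.1%, were in no window of these genes. Only these letters were searched, and other forms of the motifs were not. CpG methylation was not analysed here.

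HOXA9, the member of the cluster most closely tied to KMT2A-rearranged leukemia, lies on chromosome 7 from 27162438 to 27175180 (GRCh38, minus strand). All of its reads fell in 1 of its 4 transcript rows, ENST00000343483.7, which has 1235 of its 2064 exonic bases to itself. The other 3 rows have no base of their own. The untreated libraries held 1538, 1550 and 1497 normalised counts. With DAC the libraries held 889, 899 and 1197. With ATRA they held 1061, 1057 and 872. The level was thus lower in every library of either drug than in any untreated library. With DAC+ATRA the libraries held 640, 549 and 611, below every library of the other 3 groups. Group means were 1528 ± 27.9 (SD, n = 3) in untreated, 995 ± 175 under DAC, 997 ± 108 under ATRA and 600 ± 46.1 under DAC+ATRA.

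HOXA9 fell by 0.63 (SE 0.12) on the log2 scale with DAC, with an adjusted p of 0.00155 (limma on log2 of the normalised count plus 1, Benjamini-Hochberg over 10642 protein-coding genes). With ATRA it fell by 0.62 (SE 0.12; limma adjusted p = 5.26e-04). The mean under either drug was 0.651 and 0.652 times the untreated mean. With both drugs HOXA9 fell by 1.35 (SE 0.12; limma adjusted p = 5.56e-08), to 0.393 times the untreated mean. DAC+ATRA was lower than DAC by a log2 difference of -0.72 (SE 0.12; limma adjusted p = 1.87e-04) and lower than ATRA by -0.73 (SE 0.12; limma adjusted p = 3.08e-04). The interaction (the change DAC made in the presence of ATRA, less the change it made alone) was -0.10 (SE 0.18; limma adjusted p = 0.878). The combined fall was not shown to differ from the sum of both single falls. The interaction of any gene uses the untreated libraries, so the time in culture cannot be told apart from the drugs in it. The DAC call was lost at an adjusted p under 0.01 when only untreated and DAC libraries entered the fit (limma adjusted p = 0.0202), on leaving out untreated replicate 2 (0.0108) or on leaving out DAC replicate 2 (0.0116). The other 4 HOXA9 calls held under every alternative run.

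**Figure D1:**
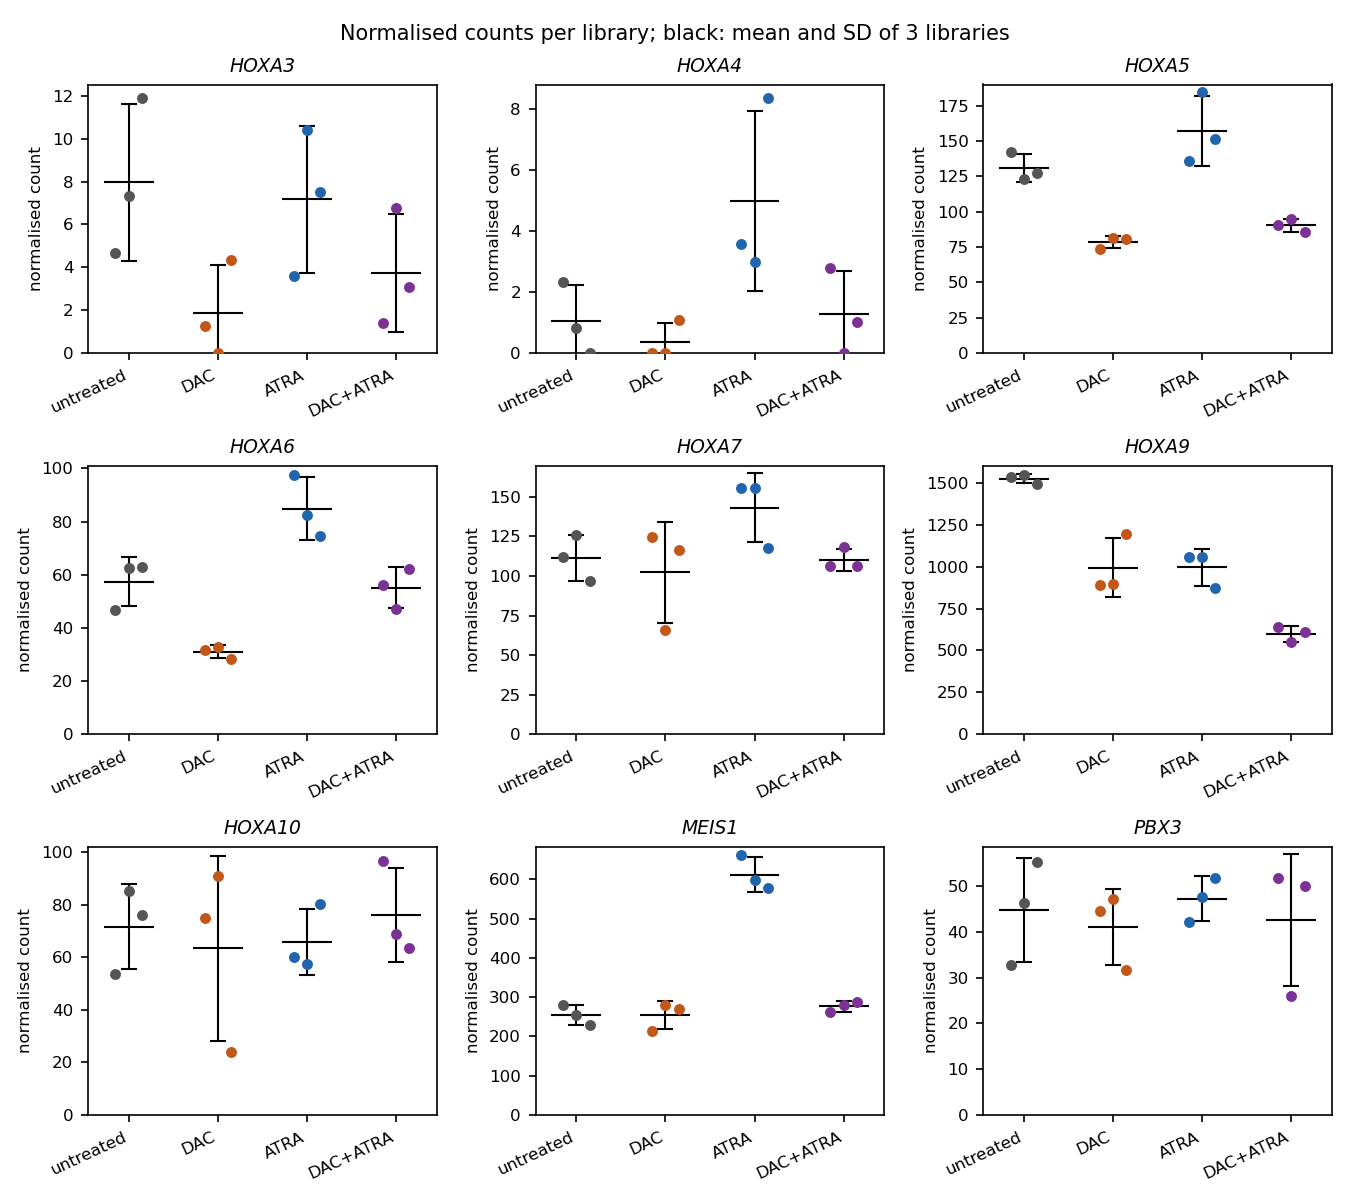
Normalised counts of the 9 genes (vertical axis, from 0, own scale per gene) in each of the 12 libraries (points) by group, with the group mean and SD as black lines (n = 3). HOXA9 steps down from 1528 in untreated to 995 under DAC, 997 under ATRA and 600 under DAC+ATRA, and MEIS1 stands at 612 in ATRA against 254 to 277 in the other groups.

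MEIS1, a TALE homeodomain protein that forms complexes with HOXA9, lies on chromosome 2 from 66433452 to 66573869 (plus strand). Untreated libraries held 279, 255 and 230 normalised counts, and DAC libraries held 214, 279 and 270. ATRA libraries held 661, 598 and 577. DAC+ATRA libraries held 262, 280 and 289. Every ATRA library lay above every library of the other groups, which overlapped each other. The means were 255 ± 24.8 (SD, n = 3) in untreated, 254 ± 35.4 under DAC, 612 ± 43.8 under ATRA and 277 ± 13.9 under DAC+ATRA. With ATRA, MEIS1 rose by 1.26 (SE 0.13; limma adjusted p = 3.42e-07), to 2.40 times the untreated mean. The log2 change with DAC was -0.01 (SE 0.13; limma adjusted p = 0.981). With DAC+ATRA it was 0.12 (SE 0.13; limma adjusted p = 0.491). DAC+ATRA was lower than ATRA by a log2 difference of -1.14 (SE 0.13; limma adjusted p = 5.21e-06). DAC+ATRA against DAC gave 0.13 (SE 0.13; limma adjusted p = 0.499). The interaction was -1.13 (SE 0.19; limma adjusted p = 0.00125), so the DAC effect on MEIS1 was lower in the presence of ATRA than in its absence. The effect in its absence is against untreated and carries the difference in time. MEIS1 was the only one of the 7 tested genes called for an interaction, against 1.6% of all tested genes.

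MEIS1 is listed as 5 transcript rows, each with bases of its own on its strand, though ENST00000495021.6 has none free of transcripts on the other strand. The row ENST00000488550.5 carried most of the reads, with 168 ± 24.2 (SD, n = 3) in untreated, 165 ± 12.1 under DAC, 380 ± 25.5 under ATRA and 193 ± 21.7 under DAC+ATRA. The rise with ATRA was called in 4 of 5 rows, with log2 changes from 1.18 to 1.57, where 19.5% of all rows were called. The exception, ENST00000398506.6, had 19.3 ± 3.70 in untreated and 30.7 ± 9.84 in ATRA (log2 change 0.61, limma adjusted p = 0.313). The lower level in DAC+ATRA than in ATRA was called in 3 of 5 rows, where 8.54% of all rows were called. At the level of rows, the interaction was called in none of the 5, by limma at an adjusted p under 0.01, where 0.964% of all rows were called. In ENST00000488550.5 it was -0.96 (SE 0.21; limma adjusted p = 0.0175). The unadjusted limma p was under 0.05 in 4 of the 5 rows, and the share of all rows under that unadjusted p was not computed.

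**Figure D2:**
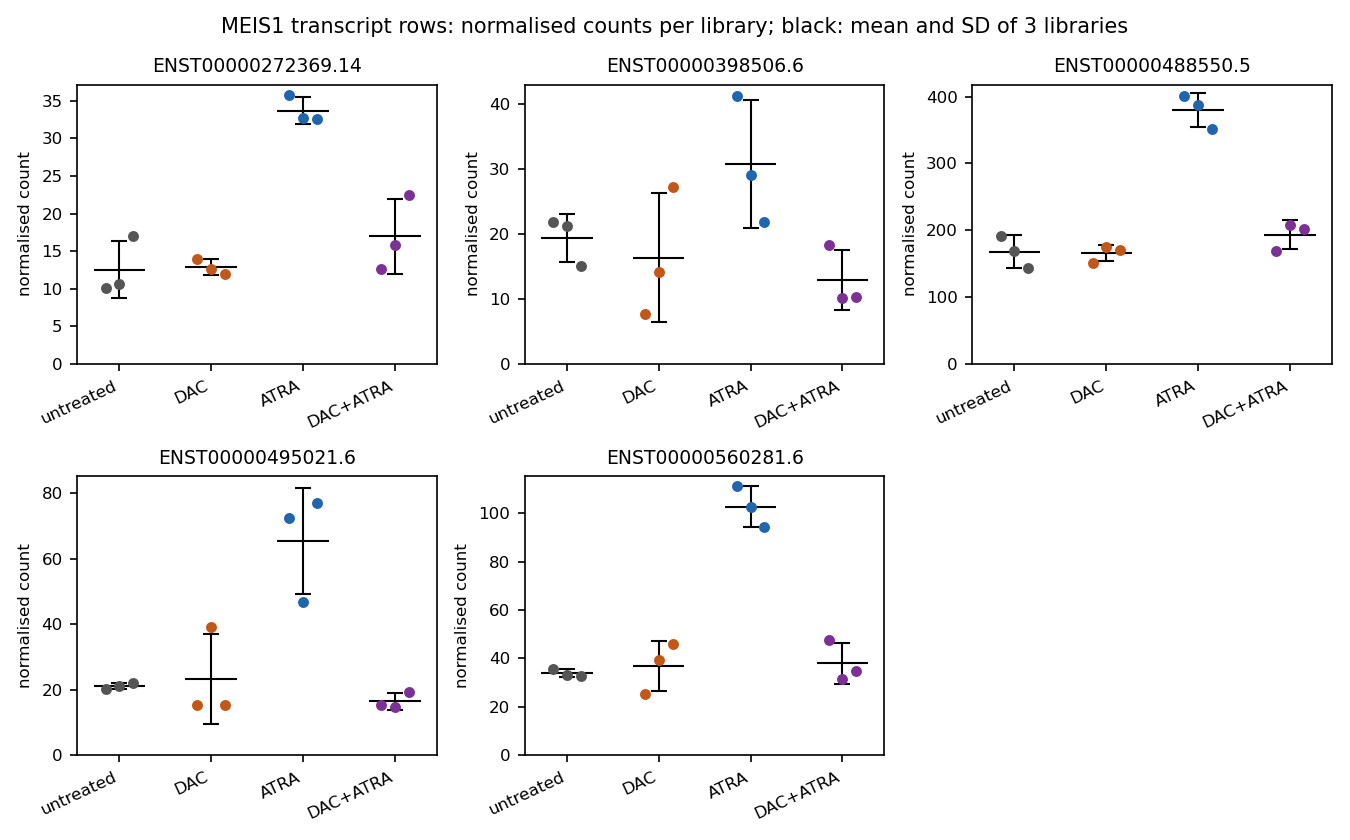
Normalised counts of the 5 MEIS1 transcript rows (vertical axis, from 0, own scale per row) in the 12 libraries (points), with group mean and SD in black (n = 3). ATRA has the highest mean in each row, for example 380 in ENST00000488550.5 and 103 in ENST00000560281.6, and overlaps untreated in ENST00000398506.6.

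PBX3, the TALE partner that stabilises HOXA9 and MEIS1 on DNA, lies on chromosome 9 from 125747345 to 125967377 (plus strand). Its normalised counts were 32.7, 46.3 and 55.2 in untreated, 44.5, 47.0 and 31.6 under DAC, 42.1, 47.6 and 51.8 under ATRA and 51.8, 25.9 and 50.03 under DAC+ATRA. The 4 groups overlapped. The log2 changes against untreated were -0.11 (SE 0.29) with DAC, 0.10 (SE 0.29) with ATRA and -0.10 (SE 0.29) with DAC+ATRA, with limma adjusted p of 0.852, 0.817 and 0.812. PBX3 rested on 563 reads over all 12 libraries. Only 28, 63 and 230 bases of 3 of its rows, and none of the fourth row, belong to 1 row alone.

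HOXA5, which lies in the central part of the cluster (chromosome 7, 27141052 to 27143681, minus strand), has 1 row, none of whose bases another listed row shares. Untreated libraries held 142, 123 and 127 normalised counts. DAC libraries held 73.8, 81.5 and 80.5, all below the untreated ones. ATRA libraries held 136, 185 and 151, which overlapped untreated. DAC+ATRA libraries held 91.0, 94.6 and 85.8, above all DAC and below all untreated and ATRA libraries. HOXA5 fell by 0.73 (SE 0.17) with DAC (limma adjusted p = 0.00514), to 0.600 times the untreated mean. DAC+ATRA lay below ATRA by a log2 difference of -0.78 (SE 0.17; limma adjusted p = 0.00214). The change with DAC+ATRA against untreated was -0.53 (SE 0.17; limma adjusted p = 0.0159) and that with ATRA 0.25 (SE 0.17; limma adjusted p = 0.255). The DAC call was lost without any 1 of the 3 untreated libraries, without DAC replicate 1 or 2 and when only both groups compared entered the fit, with limma adjusted p from 0.0127 to 0.0324. The call of DAC+ATRA against ATRA was lost without ATRA replicate 2 (limma adjusted p = 0.021) and without DAC+ATRA replicate 3 (0.0129).

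HOXA6 neighbours HOXA5 (chromosome 7, 27145396 to 27150603, minus strand). Its normalised counts were 46.7, 62.5 and 62.7 in untreated and 31.8, 32.9 and 28.3 under DAC, where 21 to 26 reads stood behind each value. ATRA libraries held 97.7, 82.6 and 74.4 and DAC+ATRA libraries 56.0, 47.3 and 62.3. DAC lay below and ATRA above every untreated library, and DAC+ATRA overlapped untreated. The log2 change with DAC was -0.85 (SE 0.22) and missed the threshold (limma adjusted p = 0.0115). It passed in DESeq2 on recovered reads (adjusted p = 0.00891) and with a filter of 50 normalised counts in 3 libraries (limma adjusted p = 0.0088). That with ATRA was 0.56 (SE 0.22; limma adjusted p = 0.0509). HOXA6 was higher in DAC+ATRA than in DAC by 0.81 (SE 0.22; limma adjusted p = 0.0088), a call that was lost in 16 of 25 alternatives, DESeq2 and edgeR among them (adjusted p = 0.0129 and 0.0122), with adjusted p up to 0.0481. It was lost on leaving out 10 of the 12 libraries in turn, and held on leaving out untreated replicate 1 or ATRA replicate 1.

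HOXA7 (chromosome 7, 27153716 to 27157936, minus strand) had group means of 111 ± 14.6 (SD, n = 3) in untreated, 102 ± 31.8 under DAC, 143 ± 21.8 under ATRA and 110 ± 6.87 under DAC+ATRA. DAC replicate 2 held 65.9, against 125 and 116 in the other DAC libraries. The groups overlapped in all 5 comparisons, and the log2 change with ATRA was 0.35 (SE 0.22; limma adjusted p = 0.220). On either strand only 509 of the 2016 exonic bases of HOXA7 are free of other listed transcripts, and the antisense RNA HOXA-AS3 covers part of the rest. The libraries were stranded, but the strand setting of the counting is not given in the sources used here. Reads of both may therefore be mixed. The MEIS1 row ENST00000495021.6, with 0 bases free of other listed transcripts on either strand, still held 236 reads over the ATRA libraries. Whether the counting kept the strands apart was not tested.

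HOXA10 (chromosome 7, 27170605 to 27180261, minus strand) had means of 71.6 ± 16.2 (SD, n = 3) in untreated, 63.3 ± 35.0 under DAC, 65.9 ± 12.5 under ATRA and 76.2 ± 17.9 under DAC+ATRA. DAC replicate 3 held 23.9, or 22 reads, against 75.1 and 91.0 in the other DAC libraries. The log2 change with DAC was -0.35 (SE 0.36; limma adjusted p = 0.567), and 0.23 without DAC replicate 3. The groups overlapped in all 5 comparisons. Over all 10642 tested genes, leaving out DAC replicate 3 raised the number called with DAC from 848 to 1385. Leaving out any other library gave 509 to 875.

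HOXA3 and HOXA4, the most anterior of these genes, stayed under the filter of 10 normalised counts in 3 libraries. HOXA3 had 76 reads in all 12 libraries. Its normalised counts were 4.67, 7.31 and 11.9 in untreated, 1.27, 0 and 4.35 under DAC, 3.58, 10.4 and 7.52 under ATRA and 1.40, 6.75 and 3.06 under DAC+ATRA. HOXA4 had 26 reads, 18 of them in ATRA, with 3.58, 2.98 and 8.36 normalised counts there and at most 2.80 in any other library. Its rows have 0 and 41 bases of their own in the annotation, and 1 row was not matched. The rows of HOXA3 have 35, 906 and 0 bases of their own on their strand, of 2763, 3263 and 3026 exonic bases. Reads on shared bases dropped out, so these low counts cannot be read as low expression. A change in either gene was not tested.

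**Figure D3:**
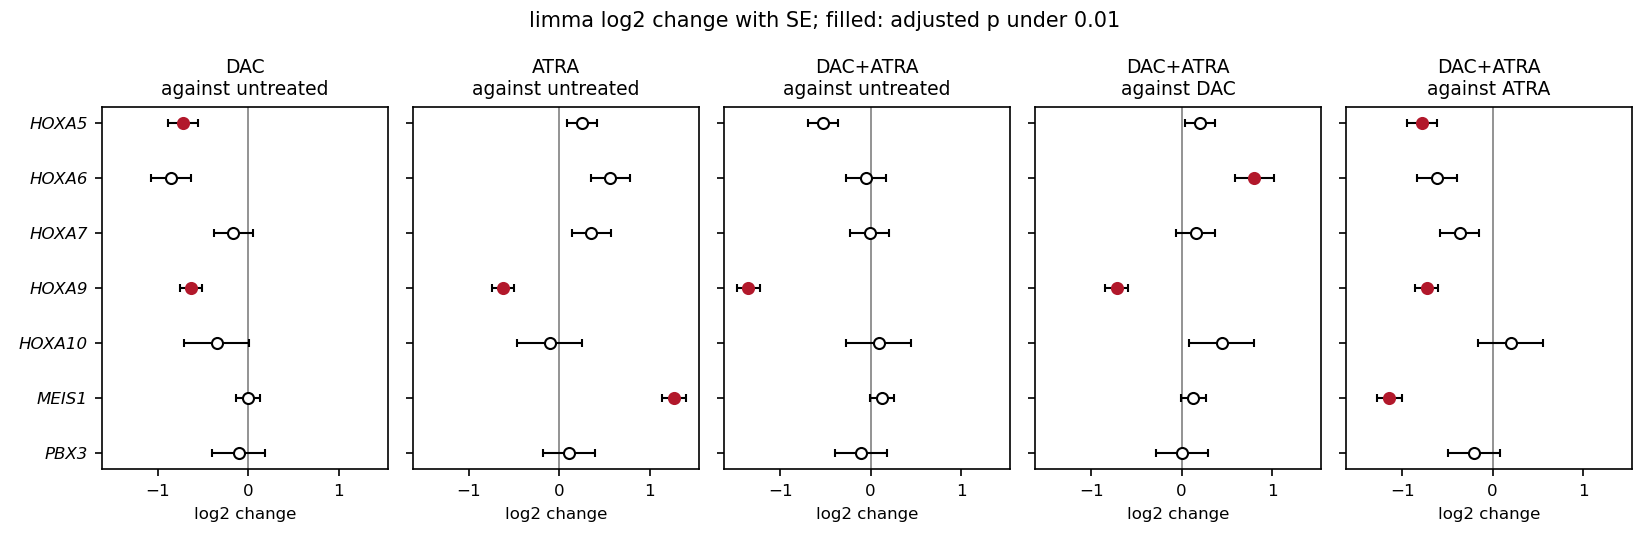
Log2 change (horizontal axis) with its SE (bars) of the 7 tested genes in 5 comparisons, filled where the limma adjusted p is under 0.01. HOXA9 is filled in all 5 panels, MEIS1 in the ATRA panel at 1.26 and in DAC+ATRA against ATRA at -1.14, and HOXA7, HOXA10 and PBX3 in none.

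Over the 7 tested genes, 2 were called with DAC, both lower (HOXA5 and HOXA9), where 7.97% of all tested genes were called and 3.67% were called lower. With ATRA 2 were called, MEIS1 higher and HOXA9 lower, where 26.0% of all genes were. With DAC+ATRA 1 was called, HOXA9, against 28.9% of all genes. DAC+ATRA against DAC called HOXA6 higher and HOXA9 lower, against 18.8% of all genes. DAC+ATRA against ATRA called 3 genes, HOXA5, HOXA9 and MEIS1, all lower, against 11.9% of all genes called and 5.46% called lower. The comparisons share libraries, so these counts are not independent. The median log2 change of the 7 genes was -0.35 with DAC, 0.25 with ATRA and -0.05 with DAC+ATRA, beside medians of 0, -0.04 and 0 over all tested genes. Libraries of both groups did not overlap for 3 of the 7 genes with DAC, 3 with ATRA and 2 with DAC+ATRA. The shares over all genes were 30.4%, 50.7% and 55.8%. They did not overlap for 3 of the 7 in DAC+ATRA against DAC and for 4 in DAC+ATRA against ATRA, beside 39.6% and 39.9% of all genes.

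The rest of the cluster was read from lists written down by name. HOTAIRM1, a myeloid long non-coding RNA at the anterior end of the cluster, had 35.9 ± 8.06 normalised counts (SD, n = 3) in untreated, 66.4 ± 14.2 under DAC, 228 ± 21.4 under ATRA and 216 ± 42.5 under DAC+ATRA. It rose in all 3 treatments, by 0.87 with DAC (SE 0.21; limma adjusted p = 0.0086 over 13448 symbols of any kind) and by 2.65 with ATRA (SE 0.21; limma adjusted p = 7.22e-09). The rows of HOTAIRM1 have only 89 of 889 and 140 of 722 exonic bases of their own on their strand. Its calls under the alternatives were not examined. Of 4 non-coding RNAs of the cluster that were tested, 1 rose and 1 fell with ATRA, where 23.7% of all symbols were called.

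At the posterior end, HOXA11, an Abdominal-B type HOX gene, fell in every treatment. Its untreated libraries held 526, 563 and 589 normalised counts. DAC libraries held 379, 337 and 371, ATRA libraries 302, 313 and 280, and DAC+ATRA libraries 279, 270 and 234. No treated library reached the lowest untreated one. HOXA11 fell by 0.62 with DAC (SE 0.12; limma adjusted p = 0.00135), by 0.90 with ATRA (SE 0.12; limma adjusted p = 6.37e-06) and by 1.10 with DAC+ATRA (SE 0.12; limma adjusted p = 5.75e-07). HOXA13, the last gene of the cluster, had 91.8 ± 5.68 in untreated, 111 ± 50.4 under DAC, 50.9 ± 4.54 under ATRA and 43.9 ± 2.27 under DAC+ATRA. It was called lower with DAC+ATRA (log2 change -1.05, SE 0.24; limma adjusted p = 0.00204) and missed the threshold with ATRA (-0.84, SE 0.24; limma adjusted p = 0.0108). The antisense RNA HOXA11-AS fell by 1.28 with ATRA (SE 0.28; limma adjusted p = 0.00133). It overlaps HOXA11, so reads of both may be mixed where they share bases.

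In map order, the fitted changes with ATRA were above 0 for HOXA5, HOXA6 and HOXA7 and below 0 for HOXA9, HOXA10, HOXA11 and HOXA13. Of these 7 genes, HOXA9 and HOXA11 were called, both lower, near the 26.0% of all tested genes called with ATRA. No test of a trend along the cluster was made. Of 5 tested neighbours outside the cluster, JAZF1, SNX10 and SKAP2 were called with ATRA, beside the same 26.0% of all genes. SNX10 had 83.6 ± 5.94 in untreated and 35.0 ± 0.863 in ATRA, JAZF1 had 43.0 ± 3.77 and 1.30 ± 1.16, and SKAP2 rose by 0.43 (SE 0.10; limma adjusted p = 0.00305).

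**Figure D4:**
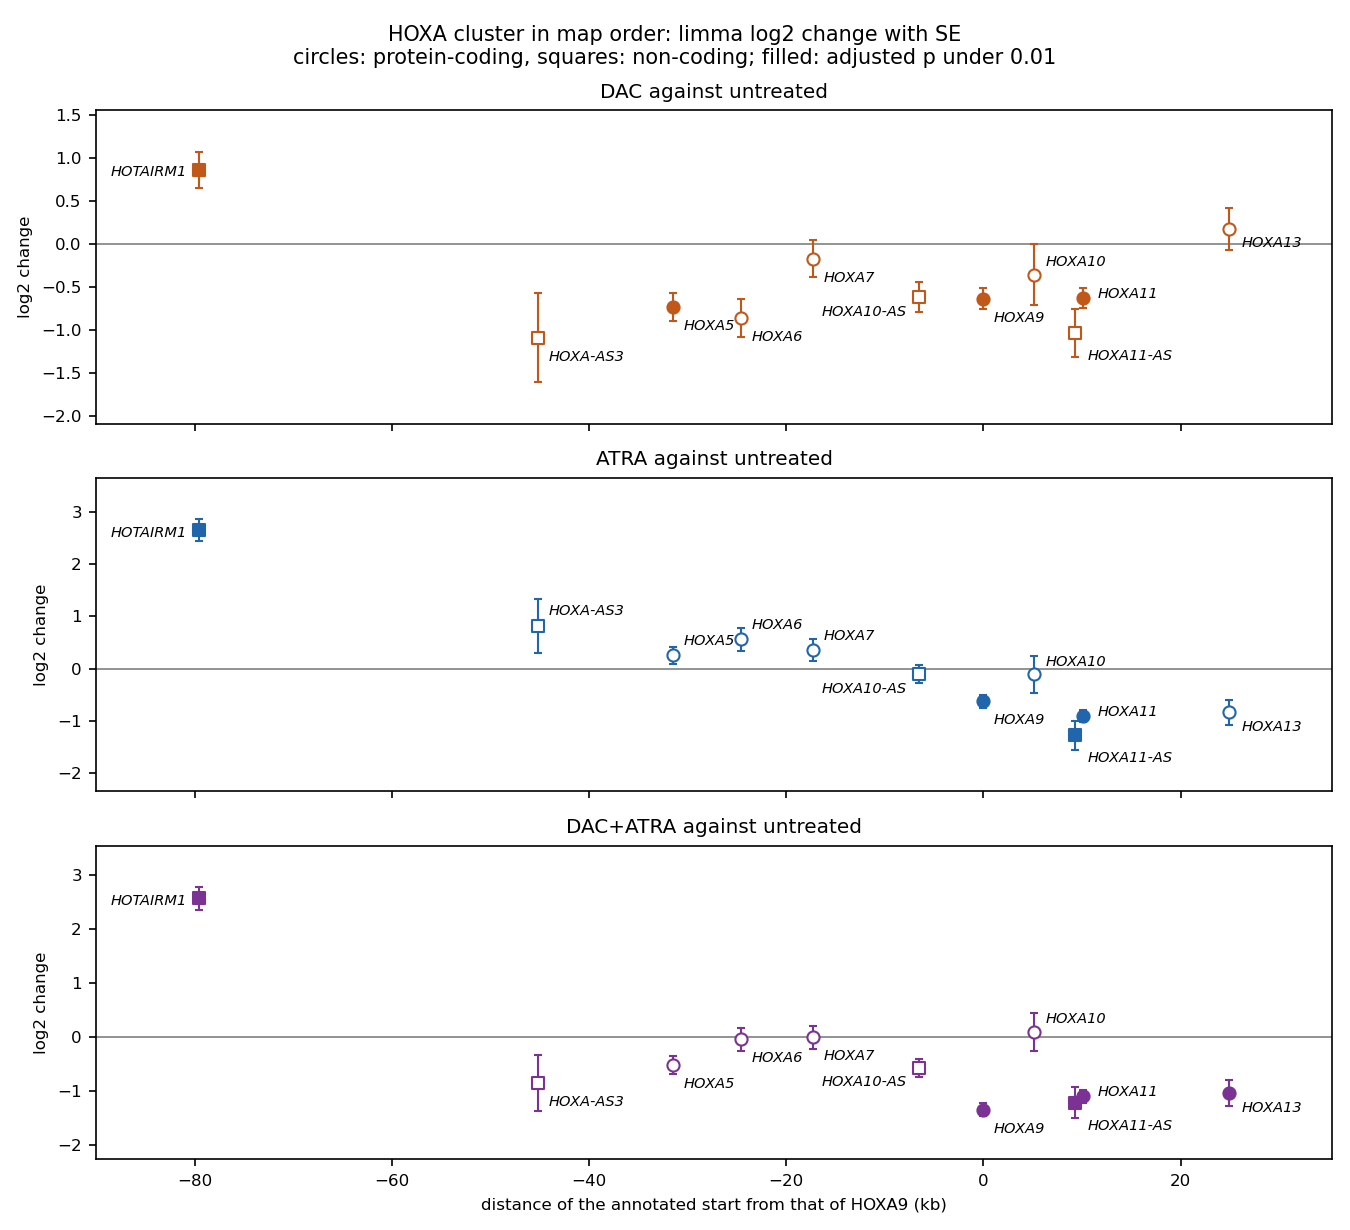
Log2 change against untreated (vertical axis, with SE) of HOXA cluster genes by the distance of the annotated start from that of HOXA9 in kb (horizontal axis), for DAC, ATRA and DAC+ATRA. Starts are the 5′ ends of the GENCODE gene spans, 27175180 for HOXA9, and not the RefSeq starts of the sequence windows. Circles are protein-coding and squares non-coding RNAs, filled where the limma adjusted p is under 0.01, and HOTAIRM1 lies above 2 with ATRA while HOXA9 and HOXA11 lie below 0.

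The HOXA cluster was the only HOX cluster above the filter. None of 28 HOX genes of the B, C and D clusters reached 10 normalised counts in any library, 15 were at 0 in all 12, and the highest value was 6.27 in HOXB3. The CDX genes, which act upstream of HOX genes, were not tested because none passed the filter. Bases that belong to 1 row alone were not computed for the CDX genes or for the B, C and D clusters. Reads on shared bases dropped out there too, so these low counts cannot be read as low expression. Among other TALE genes, 3 of 9 were tested. TGIF1, a TALE repressor that can compete at retinoid response elements, was 201 ± 11.6 (SD, n = 3) in untreated, 127 ± 19.5 under DAC, 222 ± 21.4 under ATRA and 112 ± 23.8 under DAC+ATRA. It was called lower with DAC+ATRA (log2 change -0.86, SE 0.17; limma adjusted p = 5.59e-04).

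Proteins that act on the HOXA cluster were read from 3 lists. Of all tested genes, 4.29% were called higher and 3.67% lower with DAC, 12.1% higher and 14.0% lower with ATRA, and 14.5% higher and 14.4% lower with DAC+ATRA. Of 7 tested members of the KMT2A complex, none was called with DAC or DAC+ATRA by limma, where 7.97% and 28.9% of all tested genes were called. With ATRA 2 of the 7 were called, both lower, near the 26.0% over all genes. The unadjusted limma p was under 0.05 for 1 of the 7 with DAC and for 6 with DAC+ATRA. The share of all genes under that unadjusted p was not computed, so these counts cannot be set against it. At a limma adjusted p under 0.05, 1638 of the 10642 tested genes were called with DAC and 4268 with DAC+ATRA. HCFC1 fell by 0.62 (SE 0.16; limma adjusted p = 0.00406) and WDR5, the subunit that binds the histone H3 tail, by 0.44 (SE 0.10; limma adjusted p = 0.00176). KMT2A itself, whose reads may come from the intact or the fused gene, had 90.0 ± 10.1 in untreated, 63.2 ± 22 under DAC, 73.0 ± 8.78 under ATRA and 53.3 ± 3.94 under DAC+ATRA, with limma adjusted p of 0.114, 0.335 and 0.0141.

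Of 13 tested elongation factors, the partners that KMT2A fusions recruit, 2 were lower with DAC (AFF4 and EAF1), 2 were higher with ATRA (ELL2 and CDK9) and 1 was higher with DAC+ATRA (ELL2). The shares of all tested genes were 3.67% lower with DAC, 12.1% higher with ATRA and 14.5% higher with DAC+ATRA. ELL2, a subunit of the super elongation complex, rose by 1.54 with ATRA (SE 0.13; limma adjusted p = 1.17e-08) and had 250 ± 18 in untreated, 226 ± 29.9 under DAC, 727 ± 55.7 under ATRA and 382 ± 16.2 under DAC+ATRA. CDK9, the kinase of that complex, rose by 0.84 with ATRA (SE 0.11; limma adjusted p = 8.17e-06). Both were lower in DAC+ATRA than in ATRA, with log2 differences of -0.93 and -0.63 (limma adjusted p = 3.31e-05 and 5.38e-04).

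Polycomb proteins and H3K27 demethylases set and remove the repressive mark that lies on inactive HOX genes. Of 14 tested and reported here, 1 was called with DAC, 3 with ATRA and 2 with DAC+ATRA, beside 7.97%, 26.0% and 28.9% of all tested genes. With DAC, JARID2 fell by 0.65 (SE 0.14; limma adjusted p = 0.00423). With ATRA, JARID2 rose by 0.89 (SE 0.14; limma adjusted p = 6.70e-05) while CBX2 and SUZ12 fell. SUZ12, a core subunit of Polycomb repressive complex 2, fell by 0.72 with ATRA (SE 0.17; limma adjusted p = 0.00287) and by 0.77 with DAC+ATRA (SE 0.17; limma adjusted p = 0.00151). BMI1, a subunit of Polycomb repressive complex 1, fell by 0.62 with DAC+ATRA (SE 0.12; limma adjusted p = 0.000531).

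Of 21 genes known as targets of HOXA9 and MEIS1, 15 were tested. With DAC none rose and 3 fell, with ATRA 5 rose and 6 fell, and with DAC+ATRA 4 rose and 4 fell. Over all tested genes 7.97%, 26.0% and 28.9% were called. The median log2 changes of the targets were -0.13, 0.08 and 0.00, beside 0, -0.04 and 0 over all tested genes. BCL2, the apoptosis inhibitor, was 977 ± 19.7 (SD, n = 3) in untreated, 567 ± 130 under DAC, 134 ± 24.8 under ATRA and 120 ± 28.4 under DAC+ATRA, and fell in all 3 treatments (limma adjusted p = 0.00489, 2.93e-10 and 1.34e-10). FLT3, a receptor tyrosine kinase, also fell in all 3, by 0.77, 0.77 and 0.94. SOX4, a transcription factor of progenitor cells, rose by 2.15 with ATRA (SE 0.10; limma adjusted p = 2.86e-12). MYC fell by 2.24 with ATRA (SE 0.23; limma adjusted p = 2.25e-07) and by 1.48 with DAC+ATRA (SE 0.23; limma adjusted p = 3.69e-05). MYB, a regulator of progenitor growth, fell by 2.23 with ATRA (SE 0.22; limma adjusted p = 1.09e-07) and was higher in DAC+ATRA than in ATRA by 1.71 (SE 0.22; limma adjusted p = 1.30e-05).

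**Figure D5:**
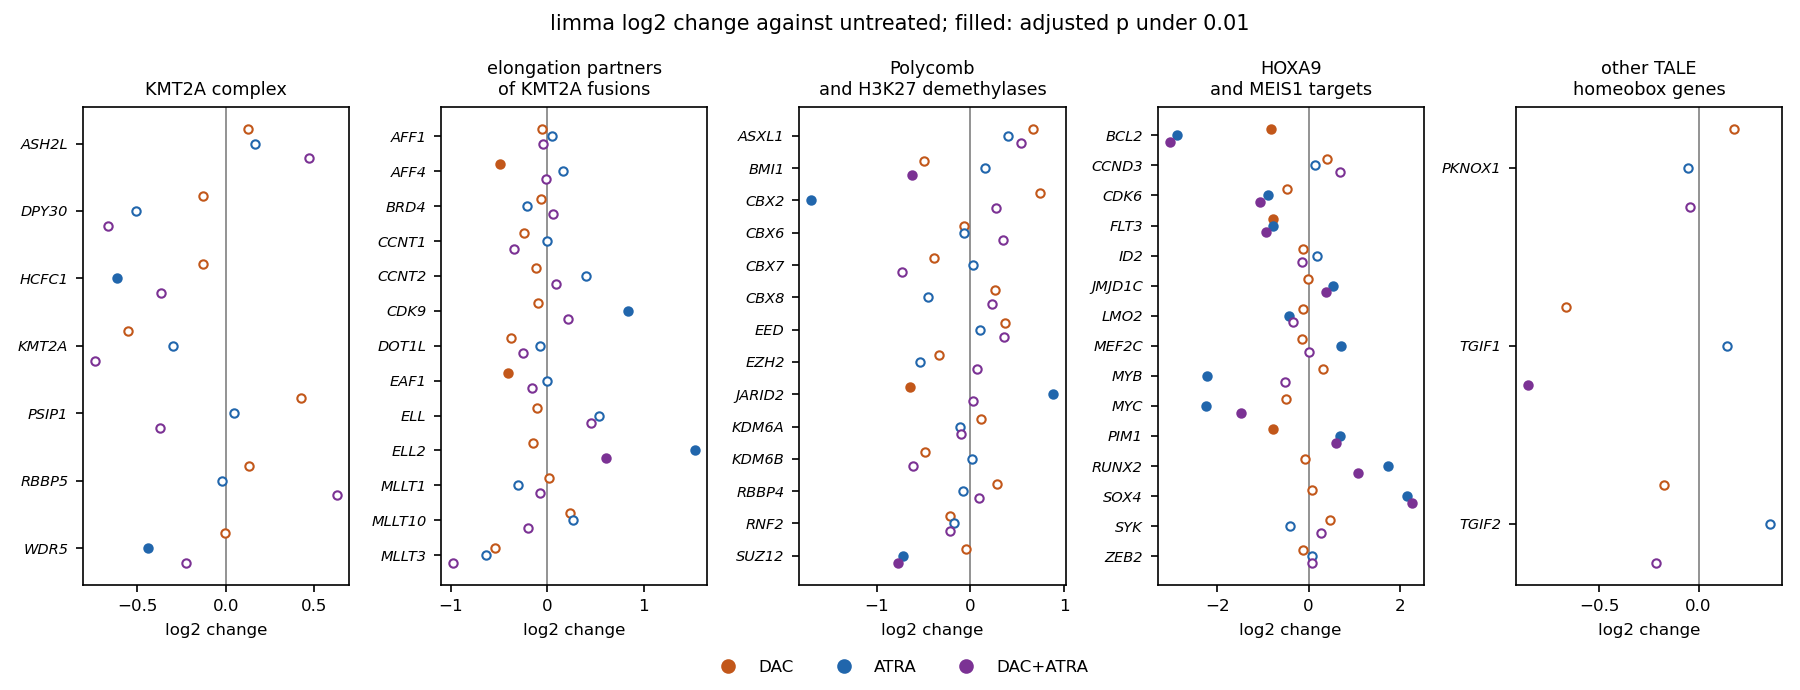
Log2 change against untreated (horizontal axis) of the tested genes of 5 lists for DAC, ATRA and DAC+ATRA (colours), filled where the limma adjusted p is under 0.01. The KMT2A complex has 2 filled points, both ATRA, and the largest falls among the targets are those of BCL2.

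The 3 genes whose profile over the 12 libraries was closest to that of HOXA9, by the root mean square difference of centred log2 values among 7050 protein-coding genes, were UBE2B (0.109), PANK3 (0.115) and H2BC21 (0.125). UBE2B, a ubiquitin-conjugating enzyme, had 725 ± 37.2 in untreated, 532 ± 127 under DAC, 496 ± 97.7 under ATRA and 320 ± 41.3 under DAC+ATRA. Those closest to MEIS1 were CCNL1 (0.160), DDX3X (0.179) and TRIB1 (0.182). DDX3X, an RNA helicase, had 410 ± 33.1, 380 ± 28.5, 1021 ± 56.0 and 527 ± 42.8 in the same groups. These genes were picked for their likeness, so their values are a description.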

How the data were processed

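RNA was sequenced from 12 libraries of MOLM-13 cells (4 groups of 3). The authors depleted ribosomal RNA, made stranded paired-end libraries, and used FastQC, STAR, htseq-count and DESeq2 on hg38, with versions not given in the sources used here. The deposited signal holds 100502 transcript rows of read counts divided by 1 size factor per library. In every library 100% of values were whole multiples of 1 step (tolerance 0.01), so reads were recovered. CTRL columns were taken as untreated.

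Rows were summed per symbol. Tests covered the 10642 protein-coding symbols that reached 10 normalised counts in 3 or more libraries, and were run with limma 3.58.1 (lmFit, eBayes with trend) in R 4.3.3 on log2(normalised count + 1), all libraries in 1 fit, without covariates. Changes of low genes come out too small on this scale. P-values were adjusted by Benjamini-Hochberg per comparison, with calls at 0.01, the authors' threshold. The design foresaw edgeR for raw counts and limma for normalised values. edgeR 4.0.16 and DESeq2 1.42.0 on recovered reads, other scalings, pseudocounts, filters and thresholds, transcript rows, a replicate block and leaving out each library were alternatives. Coordinates and bases that belong to 1 row alone came from GENCODE 44 on GRCh38, which matched 88.9% of rows. The fits were also run on simulated counts, with the same spread setting for every gene, as a check of the code. That check does not show how well changes of the size seen here are found.

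The members and lists were chosen with earlier results of these data known. Besides the members, up to 4 genes per list were named, those called against untreated with the largest change. Some genes of the lists are not reported here and were left out of the list counts. In addition, FLT3, KMT2A, CD68, CD3D, NCAM1 and HOXB3 were chosen after their values were seen. Likeness was computed over genes with a mean of at least 50. The HOX-PBX, MEIS and half-site motifs were searched on both strands.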

Additional observations from a re-analysis of the deposited data

Results flagged for a closer look

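MEIS1 stood out because the effect of DAC differed with and without ATRA by a test of the difference itself. The DAC effect with ATRA minus that without ATRA was -1.13 on the log2 scale (SE 0.19; limma adjusted p = 0.00125). The effect without ATRA is against untreated, where time in culture and DAC cannot be told apart. All 3 DAC+ATRA libraries, 262, 280 and 289 normalised counts, lay below all 3 ATRA libraries, 577 to 661, whereas DAC libraries, 214 to 279, overlapped untreated ones, 230 to 279. Among the 5 transcript rows of MEIS1 it was called in none. In the row with most reads, ENST00000488550.5, it was -0.96 (limma adjusted p = 0.0175). The cause was not tested.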

How the results depend on the processing

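Of 25 alternatives for the 7 tested genes (24 for the interaction, which needs all 4 groups), the number called with ATRA stayed at 2. With DAC it moved from 2 to 0 when only the groups compared were fitted and to 1 with the replicate block, and to 3, with HOXA6 added, in DESeq2, with the filter of 50 and at an adjusted p under 0.05. Leaving out 1 library gave 0 to 2 with DAC. With DAC+ATRA it moved from 1 to 2 when only the groups compared were fitted and at an adjusted p under 0.05. DAC+ATRA against DAC moved from 2 to 1 with DESeq2, edgeR, no filter, only the groups compared, the replicate block and transcript rows, and leaving out 1 library gave 1 to 2. DAC+ATRA against ATRA ran from 2 to 3. The interaction moved from 1 to 0 with transcript rows. The cause was not tested.

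The replicate block changed the calls of HOXA5 with DAC (adjusted p = 0.0103) and of HOXA6 in DAC+ATRA against DAC (0.0162) and no other call of these genes. Replicate numbers showed no sign of pairing the libraries. Correlations of 18 same-number pairs ran from -0.263 to 0.114, and 2 of 18 passed 0.1. Those of 36 other-number pairs ran from -0.165 to 0.246, and 5 of 36 passed 0.1. Of 12 libraries, 1 correlated best with a library of its own number.

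Values that turned sign were all uncalled. MEIS1 with DAC became 0.00101 in DESeq2 and 0.000818 in edgeR, and PBX3 in DAC+ATRA against DAC became -0.10 with transcript rows. Leaving out 1 library gave, with DAC, -0.34 to 0.12 for HOXA7, -0.71 to 0.23 for HOXA10, -0.0789 to 0.113 for MEIS1 and -0.31 to 0.0646 for PBX3. With ATRA it gave -0.30 to 0.0284 for HOXA10 and -0.10 to 0.27 for PBX3. With DAC+ATRA it gave -0.19 to 0.0557 for HOXA6, -0.11 to 0.0815 for HOXA7, -0.10 to 0.23 for HOXA10 and -0.31 to 0.21 for PBX3. In DAC+ATRA against DAC it gave -0.13 to 0.33 for HOXA7, -0.14 to 0.80 for HOXA10 and -0.17 to 0.32 for PBX3, and in DAC+ATRA against ATRA -0.37 to 0.11 for PBX3. For the interaction it gave -0.15 to 0.0663 for HOXA5, -0.19 to 0.0444 for HOXA9, -0.0311 to 0.91 for HOXA10 and -0.27 to 0.22 for PBX3. Depth was lowest in the DAC libraries, and HOXA3 and HOXA4, at 76 and 26 reads in all, were under the filter.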
